A study of Mus musculus with 15 samples.

Results

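The genes described here are those whose response to loss of Setd2 depended on whether Ezh2 was present in mouse prostate epithelial cells grown as organoids. RNA was sequenced from 4 genotypes that form a square: double null (Setd2PC-/-;Ezh2PC-/-), Ezh2 null (Ezh2PC-/-), Setd2 null (Setd2PC-/-) and control. All 4, the control included, carried a further heterozygous deletion, so that the control was not wild type. The deletions were made in the prostate (PC), with no driver named in the labels. The organoids came from C57BL/6 mice aged 3 months. Each genotype had 2 libraries, and each library was an equal-mass pool of RNA from 3 biological replicates, so that p-values measure the spread between pools. These are 8 of the 15 samples of the series; the other samples are 4 RNA libraries of another pair of genotypes and 3 chromatin samples, not analysed here. The interaction of a gene is its Setd2 effect without Ezh2 (double null minus Ezh2 null) minus its Setd2 effect with Ezh2 intact (Setd2 null minus control), on the log2(RPKM + 1) scale, where RPKM are reads scaled to the length of the transcript and the depth of the library. The 2 Setd2 effects share no library. The same number is also the Ezh2 effect in Setd2 null cells minus the Ezh2 effect in control cells, so it does not say which deletion modifies the other.

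SETD2 is the methyltransferase that places most H3K36me3, a mark of transcribed gene bodies. EZH2 carries the enzyme activity of the Polycomb complex PRC2, which places H3K27me3 on silent genes, and nucleosomes methylated at H3K36 are poor substrates for PRC2. An interaction of 0 means that the changes from both losses multiply on the RPKM + 1 scale, and a positive one means that the change on Setd2 loss was more positive in the absence of Ezh2.

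Setd2 itself stood at 8.99 and 7.54 RPKM in double null and 14.6 and 11.6 RPKM in Ezh2 null organoids, and 8.75 and 10.3 RPKM in Setd2 null and 17 and 16.1 RPKM in control organoids. It was lower wherever Setd2 was deleted, by -0.60 without Ezh2 and -0.74 with Ezh2 intact (interaction 0.14 ± 0.21, SE; limma adjusted p = 1.0). Ezh2 stood at 16.6 and 14.2 RPKM in double null and 13.8 and 11.6 RPKM in Ezh2 null organoids, and 24.2 and 20.7 RPKM in Setd2 null and 19.4 and 20.8 RPKM in control organoids. Its values were below those of Setd2 null and control organoids in all 4 libraries with the Ezh2 deletion, and transcript remained; RPKM over a whole gene do not resolve a deleted exon. Reads recovered from the RPKM values numbered 46871661 to 54155067 per library in double null and Ezh2 null organoids, and 29660483 to 34847277 in Setd2 null and control organoids. The first principal component of the 11338 genes tested carried 81.2% of the variance, with double null and Ezh2 null libraries at its positive end. The second carried 6.93% and set the libraries numbered 1 at 19.6 and 21.0 and those numbered 2 at -21.3 and -20.6 in double null and Ezh2 null organoids, while the Ezh2-intact libraries lay between -2.24 and 3.81. The epithelial label was borne out by Krt8 at 688 or more and Krt5 at 497 or more RPKM in every library. The secretory gene Pbsn was at 3.68 and 3.95 RPKM in double null and 2.19 and 2.47 RPKM in Ezh2 null organoids, and was listed at 0 in all 4 Ezh2-intact libraries. Ptprc, which marks all leukocytes, reached at most 0.0582 RPKM and the endothelial Cdh5 at most 0.0347 RPKM, while Cd68 was at 4.24 to 39.5 RPKM over the 8 libraries and Esam at 0.44 to 3.12 RPKM.

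The Setd2 effect differed with Ezh2 status at 294 of 11338 genes tested (2.59%; limma, Benjamini-Hochberg adjusted p under 0.05). The interaction was positive at 192 of them (1.69% of genes tested) and negative at 102 (0.9%). Its median size among the called genes was 1.27 with a median SE of 0.20, and 232 had an interaction of at least 1 in size. In all 294 each difference between a double null and an Ezh2 null library lay beyond each difference between a Setd2 null and a control library. The calls were made from these same values, so this adds no support to them. It also held at genes that were not called, such as Rsad2. With the replicate number as a block, 469 genes were called (4.14%; 316 positive, 153 negative), 289 of them among the 294. With a block within each Ezh2 status, where same-numbered libraries were most alike, 922 were called (8.13%), all 294 among them. On recovered reads edgeR called 224 of 14637 genes (1.53%) and DESeq2 486 (3.32%). With 1 library left out the count was lowest without a control library: it was 157 without control replicate 1, 142 without control replicate 2 and 189 without double null replicate 2. Over all genes tested the median interaction was -0.01, and the middle 50% of genes lay between -0.14 and 0.15.

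At most of the 294 genes a Setd2 effect was called only after loss of Ezh2. That count includes genes under 1 RPKM with Ezh2 intact, described below, and was not redone without them. Loss of Setd2 moved 736 genes without Ezh2 (6.49% of those tested) and 121 with Ezh2 intact (1.07%). Of the 294 genes, 223 had a called Setd2 effect without Ezh2 only, 37 with Ezh2 intact only, 10 on both backgrounds with opposite signs and 2 on both with the same sign; 22 had neither effect called by itself. Among the 192 genes with a positive interaction the median Setd2 effect was 1.03 without Ezh2 and -0.18 with Ezh2 intact. Among the 102 with a negative one it was -1.08 without Ezh2 and 0.06 with Ezh2 intact. The plot of both effects shows this as a cloud along the vertical axis. Across the 11338 genes the correlation of the 2 Setd2 effects was r = 0.23, given as a description, since genes are not independent and all values come from the same 8 libraries.

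**Figure D1:**
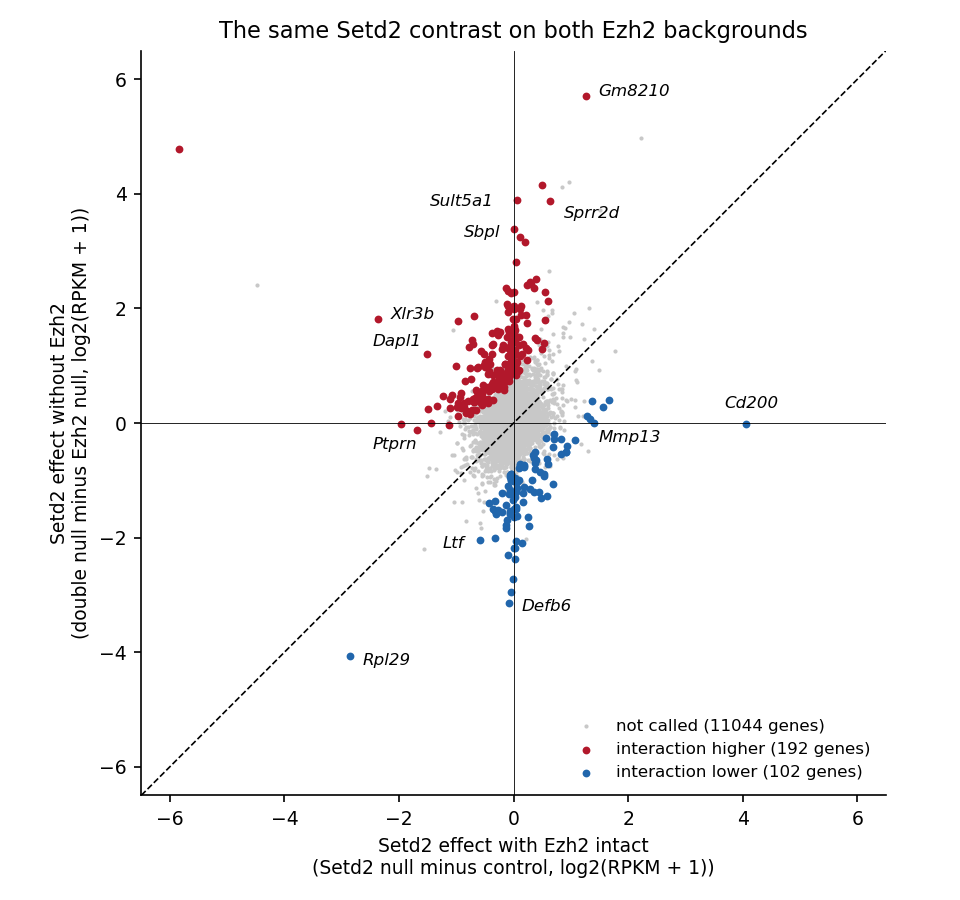
Each point is a gene, with its Setd2 effect with Ezh2 intact (Setd2 null minus control) on the horizontal axis and without Ezh2 (double null minus Ezh2 null) on the vertical axis, both in log2(RPKM + 1). The dashed line marks equal effects; the 192 genes with a called positive interaction lie above it and the 102 with a negative one below it.

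Part of the 294 were silent on 1 background, which limits what an interaction can say. Mean RPKM was under 1 in both Setd2 null and control organoids at 89 genes, and in both double null and Ezh2 null organoids at 16. Over all 11338 genes tested the same held at 534 and 178. At such a gene the effect on the silent side is held near 0 by the pseudocount of 1, so that the interaction is close to the effect on the other side. With edgeR on the recovered reads, which does not use this pseudocount, 15 of the 294 turned their sign, all of them among those 105 genes. The edgeR values of such genes also rest on low values on 1 background. A total of 111 genes reached 5 RPKM in a group of each background, and 167 were called by limma with a pseudocount of 1, limma with a pseudocount of 0.1, edgeR and DESeq2 alike. On the linear RPKM scale the departure had the same sign at 288 of the 294; the others were AA467197, Ifi202b, Il1a, Cd34, Gja1 and Aldh1a3, named after their values were seen.

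Genes of squamous differentiation, the programme by which stratified epithelia build keratin filaments and a cornified envelope, leaned to positive interactions. Of 23 tested genes of this list, 8 had a positive interaction and none a negative one (34.8%, against 2.59% of all genes), and 22 lay above 0. The list's median interaction was 1.23, made of a median Setd2 effect of 1.37 without Ezh2 and 0.13 with Ezh2 intact. Its 11 other members were under the filter of a mean of 1 RPKM.

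Krt6b, a keratin of activated and hyperproliferative epidermis, stood at 65.1 and 76.4 RPKM in double null and 10.6 and 15.8 RPKM in Ezh2 null organoids, and 5.44 and 3.13 RPKM in Setd2 null and 4.2 and 5.21 RPKM in control organoids. Double null organoids were the highest by a wide margin, while the Setd2 null and control libraries overlapped (interaction 2.50 ± 0.33, SE; limma adjusted p = 0.00404). Its partner Krt16 stood at 56.3 and 74.6 RPKM in double null and 10.6 and 13.2 RPKM in Ezh2 null organoids, and 8.02 and 5.04 RPKM in Setd2 null and 5.07 and 4.44 RPKM in control organoids (interaction 1.99). The suprabasal pair Krt1 and Krt10 behaved alike: Krt1 stood at 9.24 and 9.95 RPKM in double null and 2.37 and 2.97 RPKM in Ezh2 null organoids, and 1.03 and 1.21 RPKM in Setd2 null and 1.44 and 1.71 RPKM in control organoids. Krt10 stood at 84.1 and 112 RPKM in double null and 25.3 and 36.7 RPKM in Ezh2 null organoids, and 0.742 and 0.892 RPKM in Setd2 null and 1.02 and 0.859 RPKM in control organoids. Their interactions were 1.81 and 1.73, with limma adjusted p of 0.00147 and 0.0092. Krt6b and Krt16 have near-identical relatives, so their values depend on how reads were divided among them.

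The envelope precursor Sprr2d stood at 31.1 and 34.7 RPKM in double null and 0.924 and 1.76 RPKM in Ezh2 null organoids, and 3.96 and 2.59 RPKM in Setd2 null and 0.824 and 3.09 RPKM in control organoids. It was the largest change of the list (3.25 ± 0.55, SE; limma adjusted p = 0.033) and the least precise, and it lost its call without any of the 6 libraries of double null, Ezh2 null or Setd2 null, with array weights and with a pseudocount of 0.1 (adjusted p from 0.0657 to 0.252 in those limma fits). Sprr1b stood at 18.2 and 19.8 RPKM in double null and 3.04 and 3.19 RPKM in Ezh2 null organoids, and 5.12 and 2.22 RPKM in Setd2 null and 2.08 and 1.99 RPKM in control organoids. The calgranulin S100a9 stood at 9.45 and 6.43 RPKM in double null and 1.92 and 1.16 RPKM in Ezh2 null organoids, and 0.752 and 0.321 RPKM in Setd2 null and 0.441 and 0.627 RPKM in control organoids. Cnfn, another envelope protein, was at 3.34 and 4.19 RPKM in double null against 0.224 and 0.349 RPKM in Ezh2 null organoids and at 0.194 RPKM or listed at 0 in the 4 Ezh2-intact libraries. With edgeR on recovered reads its interaction turned to -1.04 (adjusted p = 0.990). Involucrin (Ivl) was the 1 tested member below 0: it stood at 52.6 and 46.2 RPKM in double null and 22.8 and 22.6 RPKM in Ezh2 null organoids, and 23.9 and 14.8 RPKM in Setd2 null and 6.12 and 7.25 RPKM in control organoids. Setd2 loss raised it on both backgrounds (interaction -0.29 ± 0.28, SE; limma adjusted p = 0.965).

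Neighbouring genes with related roles moved in the same direction. Peptidylarginine deiminases convert arginine to citrulline in keratins and filaggrin, and 3 of the 4 tested members rose in double null over Ezh2 null organoids. Padi3 stood at 10.5 and 13.3 RPKM in double null and 1.79 and 2.98 RPKM in Ezh2 null organoids, and 15.9 and 15.9 RPKM in Setd2 null and 16 and 18.2 RPKM in control organoids (interaction 2.04). Padi2 stood at 4.82 and 5.2 RPKM in double null and 0.371 and 0.551 RPKM in Ezh2 null organoids, and 36.4 and 34.2 RPKM in Setd2 null and 29.2 and 35.2 RPKM in control organoids (interaction 1.91). Unlike Krt6b, both were highest with Ezh2 intact, and their double null values lay between those of Ezh2 null and Ezh2-intact organoids. Between S100a10 and S100a1 on mm10 chromosome 3, the stretch that holds the epidermal differentiation complex (90511034 to 93564645), 30 genes were tested, 7 had a positive interaction and none a negative one (Crct1, Pglyrp4, Rptn, S100a9, Sprr1b, Sprr2d and Sprr2e). Of 21 tested keratins 7 had a positive and none a negative interaction (33.3%). Of all genes tested 2.59% were called, 1.69% with a positive interaction. These families and this stretch were chosen after values were seen. Without 1 library at a time, the squamous list had 6 to 10 positive interactions and none negative, and edgeR called 6.

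Among basal cell genes, Trp63, the master regulator of stratified epithelium, stood at 27.9 and 26.8 RPKM in double null and 18.3 and 17.6 RPKM in Ezh2 null organoids, and 18.1 and 19.4 RPKM in Setd2 null and 21.3 and 21.3 RPKM in control organoids (interaction 0.76 ± 0.16, SE; limma adjusted p = 0.0392). Krt17 stood at 190.0 and 248 RPKM in double null and 87.8 and 127 RPKM in Ezh2 null organoids, and 402 and 360.5 RPKM in Setd2 null and 523 and 486 RPKM in control organoids (interaction 1.43). The interaction was above 0 at all 21 tested members of the basal list, with a median of 0.49. It was called at 2 of them (9.52%, against 2.59% of all genes), and at 4 with the replicate block. Of the 8 fits with 1 library left out, the call of Trp63 was lost in 7 and that of Krt17 in 6. Luminal genes had a median of -0.02, with 2 of 26 called in each direction. Their share called, 15.4%, was above that of the basal list, and 12 of the 26 lay above 0.

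The windows upstream of the transcription start are shown for Sprr2d and Sprr1b because these neighbours rose together. They are 250 bases long, from RefSeq on GRCm38.p6, read in the direction of transcription and ending at the base before the start. Capitals mark TGANTCA, the site of AP-1 factors, which reads the same on both strands. Sprr2d lies at chr3:92338890-92339139 (plus strand) and Sprr1b at chr3:92438780-92439029 (minus strand).
Sprr2d: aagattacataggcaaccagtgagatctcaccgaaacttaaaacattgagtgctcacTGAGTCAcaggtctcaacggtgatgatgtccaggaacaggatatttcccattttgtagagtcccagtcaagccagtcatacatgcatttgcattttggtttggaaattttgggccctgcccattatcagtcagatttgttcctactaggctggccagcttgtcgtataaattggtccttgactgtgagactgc
Sprr1b: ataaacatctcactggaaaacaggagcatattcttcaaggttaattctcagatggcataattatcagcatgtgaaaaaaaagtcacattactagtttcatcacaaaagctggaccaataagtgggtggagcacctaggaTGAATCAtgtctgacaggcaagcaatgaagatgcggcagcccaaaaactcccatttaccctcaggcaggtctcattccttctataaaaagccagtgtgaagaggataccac
The match begins 193 bases before the start in Sprr2d and 111 bases before it in Sprr1b. This motif was in 10 of the 17 such windows found for tested genes of the squamous list (58.8%), against 1845 of 27025 windows of all genes (6.83%). Of the 5 members with a called interaction that had a window, 2 held it. It was in 19 of 133 windows of all genes with a positive interaction (14.3%) and 8 of 71 with a negative one (11.3%). A match is a description of the letters and not a bound site.

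Hypoxia-inducible genes, which hypoxia-inducible factors switch on when oxygen or its sensing falls, leaned the same way. Of 46 tested, 12 had a positive interaction and none a negative one (26.1%, against 2.59% of all genes), 44 lay above 0, and the median was 0.57. The median Setd2 effect was 0.57 without Ezh2 and -0.03 with Ezh2 intact. This list was written from general knowledge after the genes called had been seen. Without 1 library at a time it had 4 to 10 positive interactions, and 11 of the 12 were called by edgeR, DESeq2 and limma with a pseudocount of 0.1 alike.

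Ndrg1, a stress-responsive gene that is also induced by androgen, stood at 137 and 138 RPKM in double null and 47 and 42.7 RPKM in Ezh2 null organoids, and 255 and 286 RPKM in Setd2 null and 300.4 and 274 RPKM in control organoids. Ezh2 null organoids were the lowest group, double null organoids came next, and the Setd2 null and control libraries overlapped (interaction 1.68 ± 0.18, SE; limma adjusted p = 0.00168). Ndufa4l2, a mitochondrial protein that lowers respiration in hypoxia, stood at 30.9 and 43.8 RPKM in double null and 4.84 and 7.08 RPKM in Ezh2 null organoids, and 35.6 and 46.3 RPKM in Setd2 null and 32.6 and 33.8 RPKM in control organoids (interaction 2.18 ± 0.30, SE; limma adjusted p = 0.00442). Here the double null values overlapped those of the Ezh2-intact groups, and Ezh2 null organoids alone were low.

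The order of groups was alike at other members of the pathway. Vegfa, the angiogenic growth factor, stood at 45.1 and 53.3 RPKM in double null and 20.2 and 22.1 RPKM in Ezh2 null organoids, and 199.6 and 253 RPKM in Setd2 null and 208 and 209.9 RPKM in control organoids. Egln3, a prolyl hydroxylase that marks the factors for degradation, stood at 251 and 283 RPKM in double null and 128 and 138 RPKM in Ezh2 null organoids, and 335 and 373 RPKM in Setd2 null and 371 and 358 RPKM in control organoids. The oxidoreductase gene Ero1l stood at 165 and 135 RPKM in double null and 66.8 and 52.9 RPKM in Ezh2 null organoids, and 440.2 and 486 RPKM in Setd2 null and 553 and 448 RPKM in control organoids. In each of these the Ezh2 null libraries were the lowest and the double null libraries came between them and the Ezh2-intact ones. Interactions were 1.07 for Vegfa, 1.04 for Egln3, 1.42 for Ero1l, 1.40 for the vasodilator peptide gene Adm and 0.87 for the carbonic anhydrase Car9. Of 23 glycolytic genes tested, 3 had a positive interaction and none a negative one (13.0%, against 2.59% of all genes), with a median of 0.53. The replicate block called 4 positive and 1 negative. Without 1 library at a time 1 to 3 were called positive. The 3 were the phosphofructokinase Pfkp (1.19), the lactate exporter Slc16a3 (1.5) and the aldolase Aldoc (1.17), all of which are also on the hypoxia list. Aldoc lost its call in 6 and Slc16a3 in 3 of 21 alternative fits. Car12 was set apart in the plot of both lists: it stood at 12.8 and 12.9 RPKM in double null and 4.9 and 4.65 RPKM in Ezh2 null organoids, and 5.58 and 6.68 RPKM in Setd2 null and 1.12 and 1.05 RPKM in control organoids. Setd2 loss raised it on both backgrounds (interaction -0.51 ± 0.18, SE; limma adjusted p = 0.265).

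**Figure D2:**
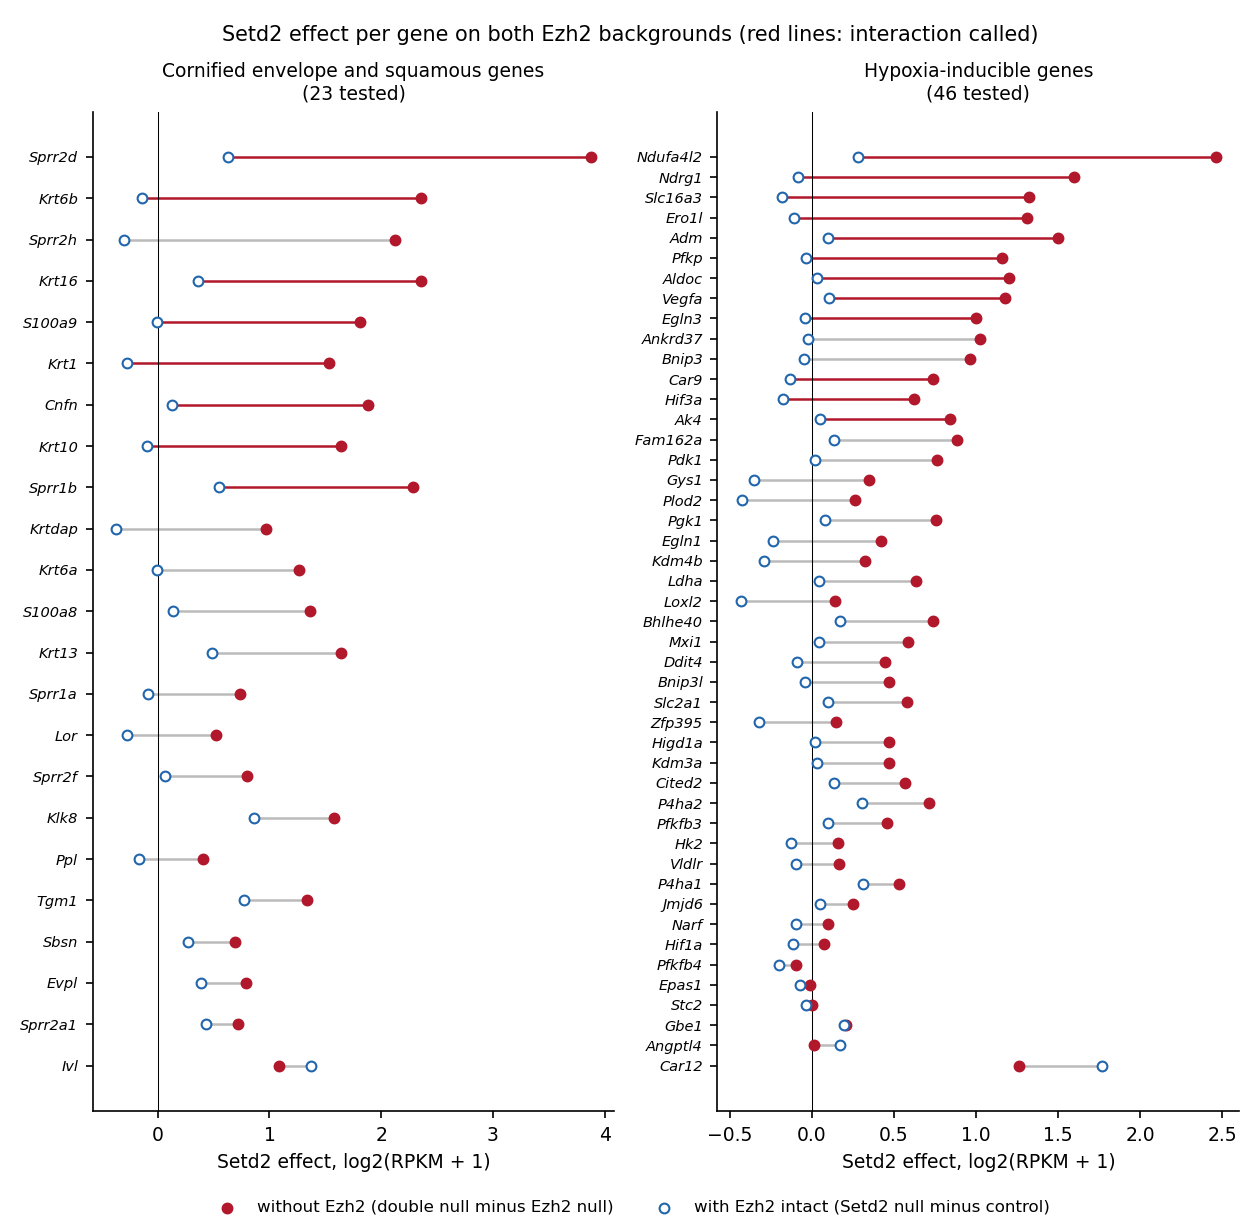
Setd2 effects in log2(RPKM + 1) of each tested gene of the squamous list (left, 23 genes) and the hypoxia list (right, 46 genes), with filled points for double null minus Ezh2 null and open points for Setd2 null minus control. Red lines join the points of the 8 and 12 genes with a called interaction; filled points lie to the right of open points at 22 of 23 and 44 of 46 genes.

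Upstream windows of the same length are shown for 2 of these genes, with ACGTG in capitals, the core letters of the hypoxia response element, found on either strand (CACGT is the same site read from the other one). ACGTG is also part of the E-box CACGTG. Egln3 lies at chr12:54203875-54204124 (minus strand) and Car9 at chr4:43506776-43507025 (plus strand).
Egln3: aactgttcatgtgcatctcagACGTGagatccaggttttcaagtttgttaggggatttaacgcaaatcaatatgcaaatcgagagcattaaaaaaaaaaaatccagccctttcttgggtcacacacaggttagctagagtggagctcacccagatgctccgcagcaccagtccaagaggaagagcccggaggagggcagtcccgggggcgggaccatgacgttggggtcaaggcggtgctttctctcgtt
Car9: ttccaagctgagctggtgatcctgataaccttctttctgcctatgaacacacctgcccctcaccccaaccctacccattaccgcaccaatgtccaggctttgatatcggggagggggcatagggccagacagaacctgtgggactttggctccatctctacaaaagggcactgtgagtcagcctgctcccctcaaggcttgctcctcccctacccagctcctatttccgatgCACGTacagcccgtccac
The match begins 229 bases before the start in Egln3 and 18 bases before it in Car9. ACGTG was in 18 of the 35 windows found for tested genes of the hypoxia list (51.4%), and in 4426 of 27025 windows of all genes (16.4%). Of the 9 members with a called interaction that had a window, 3 held it, and it was in 22 of 133 windows of all genes with a positive interaction (16.5%).

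Among the 12 highest interactions of the naming rule were genes at 1.03 RPKM or less in all libraries except double null. The sulfotransferase gene Sult5a1 stood at 20.7 and 19.2 RPKM in double null and 0.573 and 0.263 RPKM in Ezh2 null organoids, and 0.643 and 0.507 RPKM in Setd2 null and 0.391 and 0.636 RPKM in control organoids. Only the double null libraries exceeded 1 RPKM (interaction 3.83 ± 0.21, SE; limma adjusted p = 4.16e-05). Its call held in every alternative fit. Tff1 and Tff3 encode trefoil factors, which protect mucous epithelia: Tff1 was at 10.9 and 13.7 RPKM in double null against 0.737 and 1.03 RPKM in Ezh2 null organoids. Tff3 was at 5.89 and 8.34 RPKM in double null against 0.589 and 0.735 RPKM in Ezh2 null organoids. Both were at 0.072 RPKM or less in all Ezh2-intact libraries. Spink1, a secreted protease inhibitor, was at 5.96 and 7.75 RPKM in double null against 0.426 and 0.797 RPKM in Ezh2 null organoids and listed at 0 in all 4 Ezh2-intact libraries. Their interactions were 2.77, 2.32 and 2.29. With reads recovered, edgeR gave adjusted p of 1.0, 0.349 and 1.0, and DESeq2 did not call them either. Sbpl was at 10.2 and 11 RPKM in double null against 0.164 and 0.048 RPKM in Ezh2 null organoids and listed at 0 elsewhere (interaction 3.39), and its call was lost on recovered reads (edgeR adjusted p = 1.0, DESeq2 0.0852). Crct1 was at 6.12 and 6.51 RPKM in double null and 0.452 and 0.499 RPKM in Ezh2 null organoids, and 0.254 and 0.0391 RPKM in Setd2 null and 0.046 and 0.412 RPKM in control organoids (interaction 2.40). Its call was lost with edgeR (adjusted p = 0.127) and with a pseudocount of 0.1 (limma, 0.0573).

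**Figure D3:**
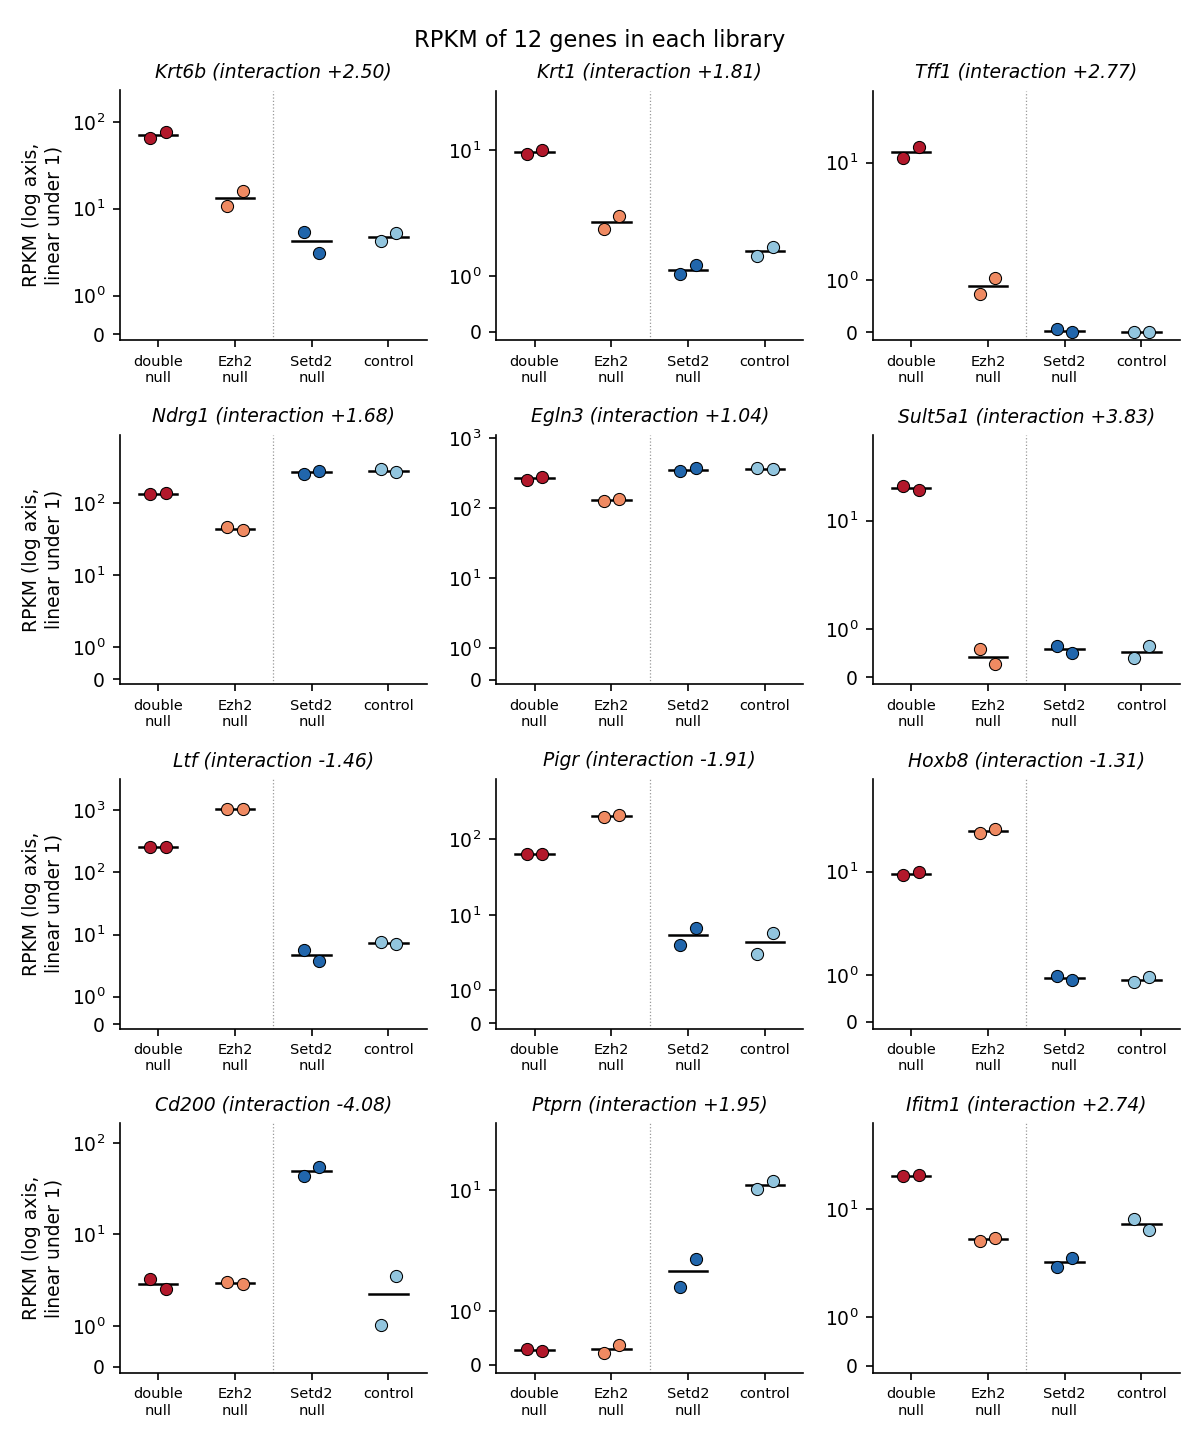
RPKM of 12 genes in each of the 8 libraries, on an axis that is logarithmic above 1 and linear below it, with group means as bars; the dotted line separates the pair without Ezh2 (double null, Ezh2 null) from the pair with Ezh2 intact (Setd2 null, control). In the first rows the double null libraries lie above Ezh2 null while Setd2 null and control are close; Ltf, Pigr and Hoxb8 show the reverse within the pair without Ezh2, and Cd200 and Ptprn differ within the pair with Ezh2 intact.

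Several named genes with a negative interaction were high in Ezh2 null organoids and lower in double null organoids. Lactotransferrin (Ltf), an iron-binding antimicrobial protein, stood at 255 and 251 RPKM in double null and 1053 and 1042 RPKM in Ezh2 null organoids, and 5.58 and 3.73 RPKM in Setd2 null and 7.64 and 7.08 RPKM in control organoids. The Ezh2 null libraries were far above all others, and the Setd2 null and control libraries were separate but close (interaction -1.46 ± 0.22, SE; limma adjusted p = 0.00844). Pigr, the receptor that carries IgA across epithelia, stood at 64.4 and 64.3 RPKM in double null and 196 and 212 RPKM in Ezh2 null organoids, and 4.02 and 6.71 RPKM in Setd2 null and 3.02 and 5.76 RPKM in control organoids (interaction -1.91 ± 0.35, SE; limma adjusted p = 0.0217). The call of Pigr was lost in 10 of 21 alternative fits.

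The surfactant protein gene Sftpd stood at 7.65 and 6.76 RPKM in double null and 34.8 and 33.1 RPKM in Ezh2 null organoids, and 0.845 and 1.29 RPKM in Setd2 null and 0.722 and 1.02 RPKM in control organoids. The mucin gene Muc20 was at 2.81 and 2.27 RPKM in double null and 14.8 and 12.9 RPKM in Ezh2 null organoids, and 1.5 and 2.19 RPKM in Setd2 null and 1.55 and 1.99 RPKM in control organoids. Their interactions were -2.23 and -2.10. Both calls held in every alternative fit that tested them. The others of this kind were near 0 in Setd2 null and control organoids. Defb6, a beta-defensin, was at 24.7 and 15.7 RPKM in double null against 219.6 and 150.5 RPKM in Ezh2 null organoids. Gpx5, a secreted peroxidase known from epididymis, was at 0.723 and 0.542 RPKM in double null against 7.1 and 5.83 RPKM in Ezh2 null organoids. The seminal vesicle protein gene Svs4 was at 2.03 and 1.75 RPKM in double null against 8.54 and 6 RPKM in Ezh2 null organoids. Both were listed at 0 in the 4 Ezh2-intact libraries, and Defb6 was at 0.102 RPKM or less there. Interactions were -3.06, -2.19 and -1.5, and edgeR on recovered reads called none of these 3 (adjusted p = 0.913, 1.0 and 1.0).

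Beta-defensins as a family did not move one way: of 10 tested, Defb11, Defb29 and Defb42 had positive interactions of 0.94, 1.24 and 0.89. Nor did the gasdermins, pore-forming proteins, where Gsdma had an interaction of 1.45 and Gsdmc3 and Gsdmc4 of -1.68 and -1.65. Cryba4 (-2.90), Glb1l3 (-2.70) and the milk protein gene Csn3 (-2.22) were also at 0.0658 RPKM or less in Setd2 null and control organoids, and Glb1l3 turned to 0.36 with edgeR on recovered reads (adjusted p = 0.996). Cryba4 lost its call with edgeR and DESeq2 on recovered reads (adjusted p = 1.0 and 0.9995), and Csn3 with edgeR (adjusted p = 0.149). Timp1 and Rec8 were above 3 RPKM in all libraries. Timp1, an inhibitor of matrix metalloproteases, stood at 7.83 and 7.68 RPKM in double null and 18.7 and 23 RPKM in Ezh2 null organoids, and 135 and 116 RPKM in Setd2 null and 97.2 and 82.8 RPKM in control organoids (interaction -1.79 ± 0.21, SE; limma adjusted p = 0.00203). The meiotic cohesin gene Rec8 stood at 3.35 and 3.74 RPKM in double null and 9.41 and 10.5 RPKM in Ezh2 null organoids, and 6.57 and 10.6 RPKM in Setd2 null and 4.6 and 5.87 RPKM in control organoids (interaction -1.86). Mmp7, the metalloprotease of glandular epithelia, stood at 780.2 and 719.8 RPKM in double null and 1558 and 1462 RPKM in Ezh2 null organoids, and 1038 and 907 RPKM in Setd2 null and 952 and 975 RPKM in control organoids (interaction -1.02).

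Hox genes, classical Polycomb targets, had called interactions of both signs. In the Hoxb cluster 4 of 9 tested genes had a negative interaction and none a positive one (44.4% called, against 2.59% of all genes). They were Hoxb2 (-1.31), Hoxb4 (-0.91), Hoxb6 (-1.0) and Hoxb8 (-1.31). Hoxb8 stood at 9.29 and 9.86 RPKM in double null and 23.4 and 26.1 RPKM in Ezh2 null organoids, and 0.986 and 0.893 RPKM in Setd2 null and 0.85 and 0.958 RPKM in control organoids. Its call held in every alternative fit. It was near 1 RPKM or less with Ezh2 intact, and lower in double null than in Ezh2 null organoids. In the Hoxd cluster 2 of 8 tested genes had a positive interaction, Hoxd11 (0.94) and Hoxd12 (1.21). Hoxd12 stood at 0.683 and 0.699 RPKM in double null and 0.383 and 0.266 RPKM in Ezh2 null organoids, and 2.25 and 2.57 RPKM in Setd2 null and 5.35 and 4.99 RPKM in control organoids. Here Setd2 loss lowered it with Ezh2 intact. None of 9 tested Hoxa genes was called, and no Hoxc gene passed the filter. Over all 26 tested Hox genes the share called was 23.1%, and the median interaction was 0.13, with 0.00 under quantile normalization. Without 1 library at a time, 1 to 3 Hoxb genes had a negative interaction, and the replicate block called 1 Hoxb gene with a positive one.

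At 37 genes the Setd2 effect was called with Ezh2 intact and not without it. Cd200, a surface glycoprotein that restrains myeloid cells, stood at 3.23 and 2.57 RPKM in double null and 3.02 and 2.89 RPKM in Ezh2 null organoids, and 43.6 and 54.7 RPKM in Setd2 null and 1.01 and 3.49 RPKM in control organoids. Only the Setd2 null libraries were high (interaction -4.08 ± 0.47, SE; limma adjusted p = 0.00465), and the wide spread of the control pair enters its error. The call was lost in 6 of 21 alternative fits, among them edgeR on recovered reads (adjusted p = 0.0552) and the fits without either Ezh2 null library, and adjusted p ranged from 7.22e-06 to 0.0782. Ecm1, a glycoprotein of the extracellular matrix, stood at 129 and 147 RPKM in double null and 92.5 and 106 RPKM in Ezh2 null organoids, and 315 and 339 RPKM in Setd2 null and 698 and 855 RPKM in control organoids (interaction 1.70), and was abundant in all groups. Ptprn, a protein of secretory granules, stood at 0.288 and 0.263 RPKM in double null and 0.21 and 0.371 RPKM in Ezh2 null organoids, and 1.57 and 2.68 RPKM in Setd2 null and 10.1 and 11.9 RPKM in control organoids (interaction 1.95). The claudin gene Cldn6 stood at 0.357 and 0.44 RPKM in double null and 0.142 and 0.193 RPKM in Ezh2 null organoids, and 22.6 and 20.8 RPKM in Setd2 null and 43.3 and 53.3 RPKM in control organoids (interaction 1.37). In these 3 Setd2 loss lowered the gene with Ezh2 intact, and the calls of Ptprn and Cldn6 held in every alternative fit that tested them.

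Some of the 37 were close to silent without Ezh2. The collagenase gene Mmp13 was at 68.9 and 68.3 RPKM in Setd2 null against 27.2 and 26.1 RPKM in control organoids and at 0.0663 RPKM or less in all 4 libraries without Ezh2. The pair of nucleic acid sensors Ifi205 and Mnda was high with Ezh2 intact. Ifi205 was at 37.5 and 37.6 RPKM in Setd2 null against 11 and 11.3 RPKM in control organoids. Mnda was at 22.4 and 22.4 RPKM in Setd2 null against 8.04 and 8.05 RPKM in control organoids. Each was at 0.628 RPKM or less without Ezh2. Lmcd1, a transcriptional cofactor, was at 1.07 and 1.28 RPKM in Setd2 null against 6.3 and 5.67 RPKM in control organoids. Interactions were -1.27, -1.27, -0.99 and 1.56. With edgeR on recovered reads they were 0.58, 0.13, 0.19 and -0.18 (adjusted p = 0.960, 1.0, 0.996 and 1.0), so that their sign depends on the scale. Among the 5 tested genes of the PYHIN family, to which both sensors belong, Ifi202b went the other way and stood at 18.4 and 14.5 RPKM in double null and 2.7 and 1.79 RPKM in Ezh2 null organoids, and 98.1 and 74.4 RPKM in Setd2 null and 74.8 and 64.4 RPKM in control organoids (interaction 2.14), a call that held in every alternative fit. Members of this family have near-identical copies, so that their values depend on how reads were divided.

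At 10 genes Setd2 loss moved the gene in opposite directions on the 2 backgrounds, in every case up without Ezh2 and down with Ezh2 intact. Ifitm1, an interferon-inducible membrane protein, stood at 20.1 and 20.6 RPKM in double null and 5.06 and 5.4 RPKM in Ezh2 null organoids, and 2.89 and 3.55 RPKM in Setd2 null and 8.06 and 6.46 RPKM in control organoids; its interaction was 2.74 ± 0.20 (SE; limma adjusted p = 0.000184). Dapl1 stood at 20.2 and 20 RPKM in double null and 7.35 and 8.99 RPKM in Ezh2 null organoids, and 1 and 0.734 RPKM in Setd2 null and 4.38 and 4.3 RPKM in control organoids (interaction 2.73 ± 0.19, SE; limma adjusted p = 0.000184). Id1, an inhibitor of basic helix-loop-helix factors and a target of BMP signals, stood at 90.1 and 112 RPKM in double null and 48.7 and 53.2 RPKM in Ezh2 null organoids, and 54.5 and 47.4 RPKM in Setd2 null and 85.4 and 89.2 RPKM in control organoids. Here double null and control organoids were close, both single deletions were lower, and the interaction was 1.74. Id3 was similar in direction (1.56), with a Setd2 effect of -0.49 with Ezh2 intact that did not pass. Selenbp1, a selenium-binding protein, stood at 51.6 and 53.9 RPKM in double null and 29.8 and 31.6 RPKM in Ezh2 null organoids, and 23.9 and 22.4 RPKM in Setd2 null and 39.7 and 38.8 RPKM in control organoids (interaction 1.5). The X-linked lymphocyte-regulated gene Xlr3b was at 6.62 and 5.7 RPKM in double null against 1.03 and 1.03 RPKM in Ezh2 null organoids, and was listed at 0 in both Setd2 null libraries against 5.77 and 2.92 RPKM in control organoids (interaction 4.18); it belongs to a family of near-identical copies. Aldh1a7, Kcnf1, Medag and 2610528A11Rik were of the same kind.

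A pair of near-identical copies moved in opposite directions. The ribosomal protein gene Rpl29, on chromosome 9, stood at 16.1 and 16.6 RPKM in double null and 278 and 304 RPKM in Ezh2 null organoids, and 14.9 and 10.4 RPKM in Setd2 null and 104 and 89.4 RPKM in control organoids. Gm8210, the copy on chromosome 1, was at 47.8 and 57.9 RPKM in double null organoids, at 0.0593 RPKM or listed at 0 in the Ezh2 null libraries, and at 35 and 21.6 RPKM in Setd2 null against 10.4 and 11.5 RPKM in control organoids. Interactions were -1.22 for Rpl29 and 4.45 for Gm8210. The sources used here do not say how reads were divided between such copies. For the sum of both, interactions were -0.93 in the libraries numbered 1 and -0.39 in those numbered 2. Of the other 74 cytosolic ribosomal protein genes tested, 1 was called, Rpl26 (1.21), which has near-identical copies too. Rpl29 lies on the same chromosome as Setd2. Within 20 Mb of Setd2, 4 of 223 genes tested were called (1.79%), and within 20 Mb of Ezh2 2 of 151 (1.32%), against 2.59% of all genes. The 4 near Setd2 were Ltf, 0.401 Mb away, Rpl29, 4.1 Mb away, Plscr2 and Rbp2, and the 2 near Ezh2 were Gpnmb and Tmem176a.

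Genes of antigen presentation by MHC class I leaned to negative interactions: 22 of 24 tested were below 0, the median was -0.51, and 2 were called (8.33%, against 2.59% of all genes). The replicate block called 7 of the 24, and 4.14% of all genes. B2m, the light chain of class I molecules, stood at 415 and 368 RPKM in double null and 682 and 609 RPKM in Ezh2 null organoids, and 1135 and 1517 RPKM in Setd2 null and 829 and 909 RPKM in control organoids (interaction -1.32 ± 0.24, SE; limma adjusted p = 0.0211). H2-T22, a non-classical heavy chain with near-identical relatives, stood at 21.6 and 21.1 RPKM in double null and 24.4 and 24.6 RPKM in Ezh2 null organoids, and 58.5 and 64.2 RPKM in Setd2 null and 36.6 and 37.8 RPKM in control organoids (interaction -0.90). Setd2 null organoids were the highest for both. With 1 library left out the list had at most 2 calls and in some fits none. Interferon-stimulated genes did not follow: of 39 tested limma called none, with 6 at an unadjusted p under 0.05, edgeR called 1 and DESeq2 6, and the median was 0.07.

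The antiviral gene Rsad2 stood at 4.7 and 3.96 RPKM in double null and 0.989 and 0.789 RPKM in Ezh2 null organoids, and 16 and 18.2 RPKM in Setd2 null and 9.55 and 8.32 RPKM in control organoids. It rose on Setd2 loss on both backgrounds (1.5 without Ezh2, 0.86 with it; interaction 0.63 ± 0.20, SE; limma adjusted p = 0.182). Oasl1 did the same (interaction 0.25, limma adjusted p = 0.887). Of 29 inflammatory and acute phase genes tested, Il1a was called (3.45%, against 2.59% of all genes). Il1a stood at 7.53 and 7.43 RPKM in double null and 1.32 and 1.58 RPKM in Ezh2 null organoids, and 56 and 51.8 RPKM in Setd2 null and 40.4 and 33 RPKM in control organoids (interaction 1.24). The departure was positive on the log scale and negative on the linear one (-11.2 RPKM), and the call was lost with a pseudocount of 5. With the replicate block 3 genes of this list had a positive and 1 a negative interaction.

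By limma no interaction was called among 13 tested subunits of PRC2 (median 0.07), 21 enzymes that write or erase H3K36 and H3K27 methylation (0.11), 20 subunits of PRC1 (0.01) or 25 developmental regulators and cell cycle inhibitors known as Polycomb targets (0.23). DESeq2 called 1 PRC2 subunit, and the replicate block called 1 PRC2 subunit, 1 of the enzymes and 2 of the Polycomb targets; edgeR called none in these 4 lists. At an unadjusted p under 0.05 limma had 2 PRC2 subunits, 1 of the enzymes, 1 PRC1 subunit and 4 Polycomb targets. None was called by limma, edgeR, DESeq2 or the block among 40 replication and mitosis genes, 3 of them at an unadjusted limma p under 0.05, where 38 lay below 0 with a median of -0.25, with -0.42 in the libraries numbered 1 and -0.06 in those numbered 2. Of 33 lists 16 held no call by limma; the others among them were lipid synthesis (median 0.23, 28 of 29 above 0), Wnt feedback, PI3K-AKT, AMPK and FOXO genes, immediate early and heat shock genes, oxidative phosphorylation, imprinted genes, DNA repair, endothelium and neuroendocrine genes. Of the 345 tested members of these 16 lists, 41 had an unadjusted p under 0.05, edgeR called 2, DESeq2 15 and the replicate block 12. Over all genes limma put 1166 at an unadjusted p under 0.05. Among the remaining lists, further calls were positive for, among others, the matrix protein Tgfbi (1.01), the desmosomal plakophilin Pkp1 (1.35), the peptidase Dpp4 (1.52), the urothelial keratin Krt20 (1.27) and the retinaldehyde dehydrogenase Aldh1a3 (0.80), and negative for the glutathione transferase Gsta3 (-1.19), which has near-identical relatives. The call was lost in 14 of 20 alternative fits for Tgfbi and in 14 of 21 for Aldh1a3. It was lost in 9 of 21 for Pkp1, 8 of 21 for Gsta3 and 1 of 20 for Krt20, and held throughout for Dpp4. A p that misses the threshold does not show that both Setd2 effects were equal: with a median SE of 0.21 over all genes, smaller departures could be missed. In the plot of list medians the squamous list stands at 1.23 and most others lie between -0.25 and 0.33.

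Some markers of other cell types were present, and some of them moved with Ezh2 status or with the results. Of 12 stromal genes listed 5 passed the filter, with Col3a1 called (-0.89, lost in 15 of 20 alternative fits). The summed level of the stromal list was 35.5 and 29.4 RPKM in double null and 35.7 and 33.1 RPKM in Ezh2 null organoids, and 8.54 and 14.2 RPKM in Setd2 null and 13.5 and 9.77 RPKM in control organoids. A large part of the double null sum was Dcn. Dcn was at 25.5 and 20.3 RPKM in double null and 18.8 and 12.6 RPKM in Ezh2 null organoids, and at 1.30 RPKM or less with Ezh2 intact. Col1a1 was lower in double null (1.79 and 2.19 RPKM) than in Ezh2 null organoids (3.29 and 5.33 RPKM). Acta2 was higher with Ezh2 intact, at 0.556 and 0.801 RPKM in Setd2 null and 2.00 and 0.672 RPKM in control organoids. Without Ezh2 it reached at most 0.223 RPKM. Des was at 0.088 RPKM or less in every library. Of 11 immune genes 2 passed, Cd68 and Lyz2. The summed level of that list was 14.3 and 15.9 RPKM in double null and 14.4 and 15.9 RPKM in Ezh2 null organoids, and 33.5 and 39.8 RPKM in Setd2 null and 22 and 24.7 RPKM in control organoids. Lyz2, also made by some epithelia, was at 2.67 and 3.02 RPKM in double null against 7.69 and 8.2 RPKM in Ezh2 null organoids and listed at 0 with Ezh2 intact (interaction -1.22; edgeR on recovered reads, adjusted p = 1.0). The list of seminal vesicle and urothelium genes summed to 1267 and 1468 RPKM in double null and 860.3 and 1027 RPKM in Ezh2 null organoids, and 1798 and 1386 RPKM in Setd2 null and 1518 and 1391 RPKM in control organoids. The largest part was Krt7, a keratin of simple epithelia, at 775 and 908 RPKM in double null and 632 and 757 RPKM in Ezh2 null organoids, and 1742 and 1344 RPKM in Setd2 null and 1478 and 1352 RPKM in control organoids. Krt13, which is also on the squamous list, stood at 392 and 471 RPKM in double null and 116 and 162 RPKM in Ezh2 null organoids, and 19 and 10.3 RPKM in Setd2 null and 9.2 and 10.3 RPKM in control organoids (interaction 1.16 ± 0.36, SE; limma adjusted p = 0.184). The seminal vesicle gene Pate4 was at 49.4 and 33.4 RPKM in double null and 39.3 and 29.5 RPKM in Ezh2 null organoids, and at 0.0323 RPKM or listed at 0 with Ezh2 intact. The part of such cells in the interactions of secretory genes was not tested, and in bulk RNA fewer cells of a type and less RNA per cell cannot be told apart.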

How the data were processed

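RPKM values of 8 libraries were used as deposited by the authors, in a table of 21886 genes; 27 gene symbols that had become dates were named from their Entrez identifiers. Per the submitters' processing notes the build was mm10 and Bowtie, RSEM, BWA and SICER were used in the series. The sources used here give no versions and do not say how reads of near-identical genes were assigned. A deposited table of whole counts covers the other 4 RNA libraries and was not used in any comparison.

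The scale of analysis was log2(RPKM + 1). The 11338 genes whose RPKM averaged 1 or more entered 1 limma 3.58.1 model (R 4.3.3) with a mean per group, trended and robust moderation and 4 residual degrees of freedom. The contrast was (double null minus Ezh2 null) minus (Setd2 null minus control), two-sided, adjusted by the Benjamini-Hochberg method over all genes tested and called at 0.05. A difference on this scale understates changes of low genes. On data simulated from these libraries (11318 genes tested), the fit recovered 80 of 98 interactions of size 1 and 98 of 98 of size 2, with 14 false calls. The simulated reads had the same set spread at every gene and no difference shared by same-numbered libraries. Interactions were placed only at genes with many reads, and other Setd2 effects were set to 0. These figures therefore do not give the error rate of the real calls.

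RPKM values were whole multiples of 1 read at 13744 of 13748 genes above 0 in all 8 libraries (99.97%, within 0.01 reads), which gave reads for edgeR 4.0.16 and DESeq2 1.42.0. Other alternatives were quantile normalization, scaling by median ratios, all genes without a filter, a filter at 5 RPKM, pseudocounts of 0.1 and 5, no trend or robust moderation, array weights, a replicate block, an absolute log2 of at least 1 and leaving out each library.

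The labels number the libraries 1 and 2 in each group. Differences between library 1 and library 2 correlated across genes in every pair of groups: r was 0.933 between double null and Ezh2 null, 0.358 between Setd2 null and control and 0.105 to 0.155 between the rest. The numbers were therefore taken to pair the libraries, but only in the fits with a replicate block. The main fit, which gave the 294 calls, had no replicate term, so these shared differences stayed in its residual spread.

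The rule for named genes took Setd2 and Ezh2, the 12 highest and 12 lowest interactions among called genes without overlap that reached 5 RPKM (no predicted genes, clones, pseudogenes or microRNAs), up to 3 genes of each of 33 lists by smallest p, and 15 genes named by earlier results. The text gives part of them. Members, lists and rule were chosen with earlier results of these data known, and the hypoxia list, gene families, the stretch on chromosome 3 and the motifs after the values were seen. Genes named outside the rule were also chosen after their values were seen. Some genes that the rule or the labels name are not reported here.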

Additional observations from a re-analysis of the deposited data

Results flagged for a closer look

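The Setd2 effect differed between organoids without Ezh2 and organoids with Ezh2 intact, by the limma interaction test, at 294 genes. Genes with large values, by the rule given in the processing, are listed here with their interactions in log2(RPKM + 1).

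Among the positive ones, Xlr3b, which has near-identical copies, had an interaction of 4.18, and its Setd2 effect changed sign with Ezh2 status. Dapl1 (2.73) and Ifitm1 (2.74) also changed sign. Sult5a1 (3.83), Sbpl (3.39), Tff1 (2.77), Tff3 (2.32) and Spink1 (2.29) were at 1.03 RPKM or less in all libraries except double null. Sprr2d (3.25), Krt6b (2.50) and Crct1 (2.40) are genes of squamous differentiation.

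Among the negative ones, Cd200 had -4.08, with a Setd2 effect called with Ezh2 intact only. Defb6 (-3.06), Cryba4 (-2.90), Glb1l3 (-2.70), Csn3 (-2.22) and Gpx5 (-2.19) were near 0 with Ezh2 intact. Sftpd (-2.23), Muc20 (-2.10), Pigr (-1.91) and Gsdmc3 (-1.68) were highest in Ezh2 null organoids. Rec8 (-1.86) and Timp1 (-1.79) were above 3 RPKM in every library. A group of 2 libraries is too small to single out one of them as far from the other.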

How the results depend on the processing

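The 3 counts (genes called, with a positive and with a negative interaction) were recomputed under 21 other fits and with an absolute log2 of at least 1. A mean of at least 5 RPKM left 146 genes called (94 positive, 52 negative). The replicate block gave 469 (316 positive), and the block within Ezh2 status 922 (565 positive, 357 negative). DESeq2 on recovered reads gave 486 (334 positive). EdgeR on recovered reads gave 65 negative interactions, and with the replicate block, an alternative chosen after seeing the data, 296 positive ones. Without 1 library at a time the counts ran from 142 to 278 called, 95 to 197 positive and 47 to 83 negative. In every other fit each count stayed within 1.5 times the value reported. On the linear RPKM scale the sign was the same at 288 genes, and at 459 of those called under the replicate block.

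Of the 60 named genes with a called interaction, 21 kept the call in every fit that tested them. With edgeR on recovered reads the sign turned at Glb1l3 (0.36; 0.34 with the block), Ifi205 (0.13; 0.12 with the block), Mnda (0.19; 0.19 with the block), Cnfn (-1.04; -0.95 with the block), Mmp13 (0.58; 0.58 with the block) and Lmcd1 (-0.18; -0.17 with the block). DESeq2 turned Ifi205 (0.15), Mnda (0.20), Mmp13 (0.67) and Lmcd1 (-0.29). All 6 were under 1 RPKM in both groups of 1 Ezh2 background, and none of these reversed values passed its test. Leaving out a library leaves 1 in its group, which is then assumed to vary like the others. With 2 pools a group the precision is limited; interactions under 1 in size were not simulated.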
